A study of Mus musculus with 10 samples.

Results

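The nuclear genes of the 5 protein complexes of mitochondrial oxidative phosphorylation (OXPHOS) were followed in lesional and uninvolved mouse skin. They were taken by symbol, as every row of the count tables beginning with Nduf followed by a, b, c, s or v, with Uqcr, with Cox4 to Cox8 or with Atp5, together with the 4 symbols Sdha to Sdhd. This gave 92 of 24358 gene symbols, and 0 further symbols carried a pseudogene suffix. Of the 92, 81 are subunits, with 36 in complex I, 4 in complex II, 8 in complex III, 18 in complex IV and 15 in complex V. The other 11 are 7 Ndufaf assembly factors of complex I, the supercomplex factor Cox7a2l, the relative Ndufa4l2, and Atp5s and Atp5sl. The 13 subunits encoded in mitochondrial DNA were not analysed here.

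Each of 5 mice on the C57Bl/6 strain gave a lesional and an uninvolved full-thickness biopsy of dorsal skin, and RNA from the 10 biopsies was sequenced on an Illumina Genome Analyzer IIx. The groups were lesional IL-17C+KO skin and uninvolved IL-17C+KO skin of mice 2392 and 2465, and lesional IL-17C+ skin and uninvolved IL-17C+ skin of mice 2237, 2275 and 2296. All 5 mice carry the interleukin-17C (IL-17C) transgene, so uninvolved skin is transgenic too, and the title of the series gives interleukin-6 (Il6) as the gene knocked out in the KO mice. Mice were taken at 10 or 14 weeks, the labels do not tie a mouse to an age, and what drives the transgene is not stated in the sources used here.

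Complexes I to IV pass electrons from NADH and succinate to oxygen and, except for complex II, pump protons across the inner mitochondrial membrane. Complex V, the ATP synthase, uses that gradient to make ATP. Complex IV (cytochrome c oxidase) exists with tissue-specific isoforms: Cox6a2, Cox7a1 and Cox8b are the heart and skeletal muscle forms of subunits whose widely expressed forms are Cox6a1, Cox7a2 and Cox8a. Full-thickness mouse dorsal skin includes a thin layer of striated muscle, the panniculus carnosus.

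Libraries held 21056850 to 31072491 counts, of which the 92 genes took 1.17 to 2.11%. Of the 92, 90 had enough counts to be tested; Cox8c, a testis isoform, had 0 counts in all 10 libraries, which allows up to 0.0965 to 0.142 CPM (counts scaled to the library total) at these depths, and Cox7b2 had 2 counts in all. Keratinocyte markers of the interfollicular epidermis summed to 18900 to 26000 CPM in lesional and 15700 to 34100 CPM in uninvolved skin. Il6 had 315 and 300 counts in lesional and 71 and 55 in uninvolved libraries labelled IL-17C+KO (mice 2392 and 2465), against 26, 18 and 69 in lesional and 9, 4 and 6 in uninvolved IL-17C+ libraries (mice 2237, 2275 and 2296). Counts of the targeted gene were thus higher under the KO label. Gene counts do not tell an intact from a disrupted allele, and whether the labels or a transcribed disrupted allele account for this was not tested. Every direction between genotypes below rests on the labels. The uninvolved library of mouse 2237 and the lesional library of mouse 2296 stood apart in how counts depended on transcript length. Relative to the 10-library mean, the 1287 tested genes with transcripts under 1 kb had a median of 0.26 log2 units in the lesional library of mouse 2296 and 0.60 in the uninvolved library of mouse 2237, and between -0.22 and -0.01 in the other 8. The OXPHOS genes are short, with a median transcript of 748 bases against 2633 for all genes tested, so medians of the OXPHOS genes are also given without these mice.

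OXPHOS transcripts were abundant in skin. FPKM values (fragments scaled to transcript length and library depth), which allow levels to be set side by side between genes, had medians over the subunits of 175 in complex I, 138 in II, 454 in III, 348 in IV and 496 in V, averaged over the 10 libraries, against 6.69 for all genes tested. The highest mean level of each complex belonged to Ndufb9 (481 FPKM), the iron-sulfur subunit Sdhb (171), Uqcrh (767), Ndufa4 (1215) and Atp5k (1077). The first place of Atp5k holds by FPKM only, since it averaged 119.5 CPM where Atp5b averaged 1751 CPM. Ndufa4, once assigned to complex I and now to complex IV, had 1221, 954, 1001, 765 and 1556 FPKM in lesional skin of mice 2392, 2465, 2237, 2275 and 2296, against 1192, 1169.8, 1876, 1223 and 1196 FPKM in their uninvolved skin. Its groups overlapped, and its highest value was in the uninvolved library of mouse 2237. The 7 assembly factors, which help build complex I but are not part of it, were far lower than the subunits, with a median of 9.46 FPKM and a range of 5.28 (Ndufaf5) to 25 (Ndufaf2). Among the isoforms, Cox4i2 averaged 4.05 FPKM against 699 for its common partner Cox4i1, and Cox6b2, a testis isoform, 4.66 against 748 for Cox6b1. Ndufs5 had only 26 to 93 counts per library at 57.6 to 191 FPKM, the largest ratio of FPKM to CPM in the set (51, against 9.11 for Atp5k), so its counts are uncertain.

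**Figure D1:**
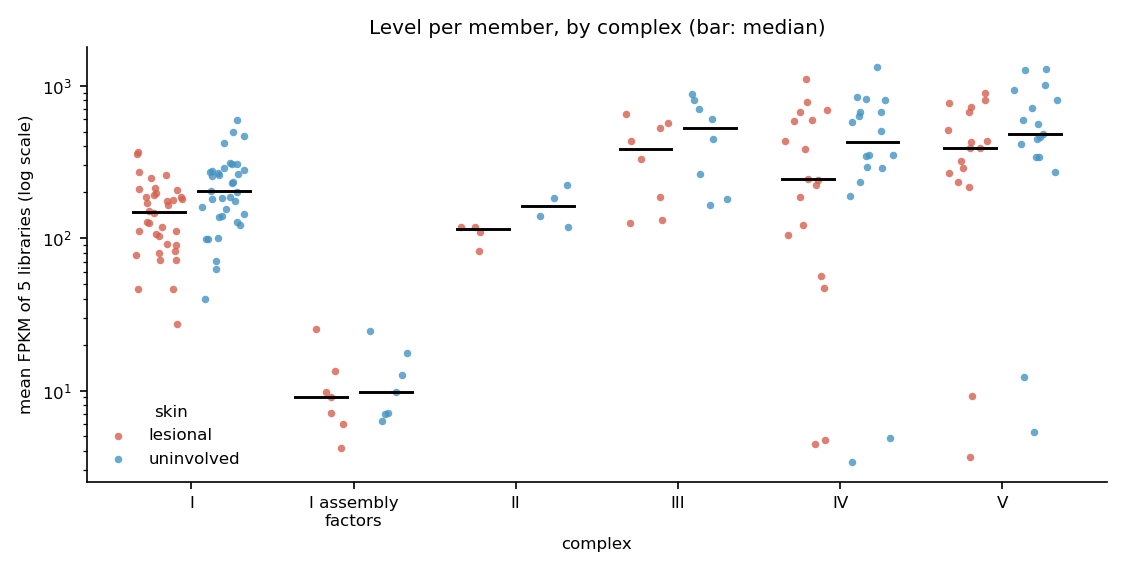
Mean FPKM of each OXPHOS gene over the 5 lesional and the 5 uninvolved libraries on a log axis, by complex, with assembly factors apart and a bar at each median; Cox8c and Cox7b2, at or near 0, fall outside the axis. Over all 10 libraries the subunit medians run from 138 (complex II) to 496 FPKM (complex V), and the assembly factors sit at a median of 9.46.

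Most OXPHOS genes were lower in lesional than in uninvolved skin in 4 of 5 mice, by an amount that no single gene carried past the threshold over all genes. The 81 subunits summed to 13400, 10900, 12100, 11400 and 16600 CPM in lesional skin of mice 2392, 2465, 2237, 2275 and 2296, against 17500, 20700, 22300, 20200 and 15100 CPM in their uninvolved skin. The lesional library of mouse 2296 was the highest of its group and its uninvolved library the lowest, and the groups overlapped only there. Gene by gene, 85, 84, 88 and 86 of 90 were lower in lesional skin of mice 2392, 2465, 2237 and 2275, with median differences of -0.38, -0.95, -1.01 and -0.83 on the log2 CPM scale. In mouse 2296 only 22 of 90 were lower and the median was 0.18. Over all 16083 genes the median of each mouse lay between -0.02 and 0.00.

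Averaged over the 5 mice, 87 of 90 OXPHOS genes had a negative log2 change (96.7%, where 50.5% of all genes tested did), and the median was -0.60 against -0.01 for all genes. By edgeR's quasi-likelihood F test with a block per mouse and Benjamini-Hochberg adjustment over all genes, 0 of 90 passed a false discovery rate of 0.05; the smallest adjusted p was 0.0693 (Cox7a1). In the same test 0.0311% of all genes were called lower and 0.0933% higher. At an unadjusted p under 0.05, 43 of the 90 were lower (47.8%, against 9.98% of all genes) and 0 were higher (against 8.83%). limma-voom also called 0, whereas DESeq2 called 11 of 90, all lower, where it called 954 of all 16083 genes lower. Among the 11 were Cox7a1, Cox6a2, Cox8b, Sdhb, Ndufa4l2, Ndufs7, Ndufa6, Ndufb5, Ndufb8 and Atp5c1. Without the mouse block, edgeR called 7 lower, where it called 435 of all 16083 genes lower. The 7 were Cox7a1, Cox6a2, Cox8b, Sdhb, Ndufs7, Ndufa6 and Ndufb5. In bulk tissue fewer cells of a type and less RNA per cell cannot be told apart.

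**Figure D2:**
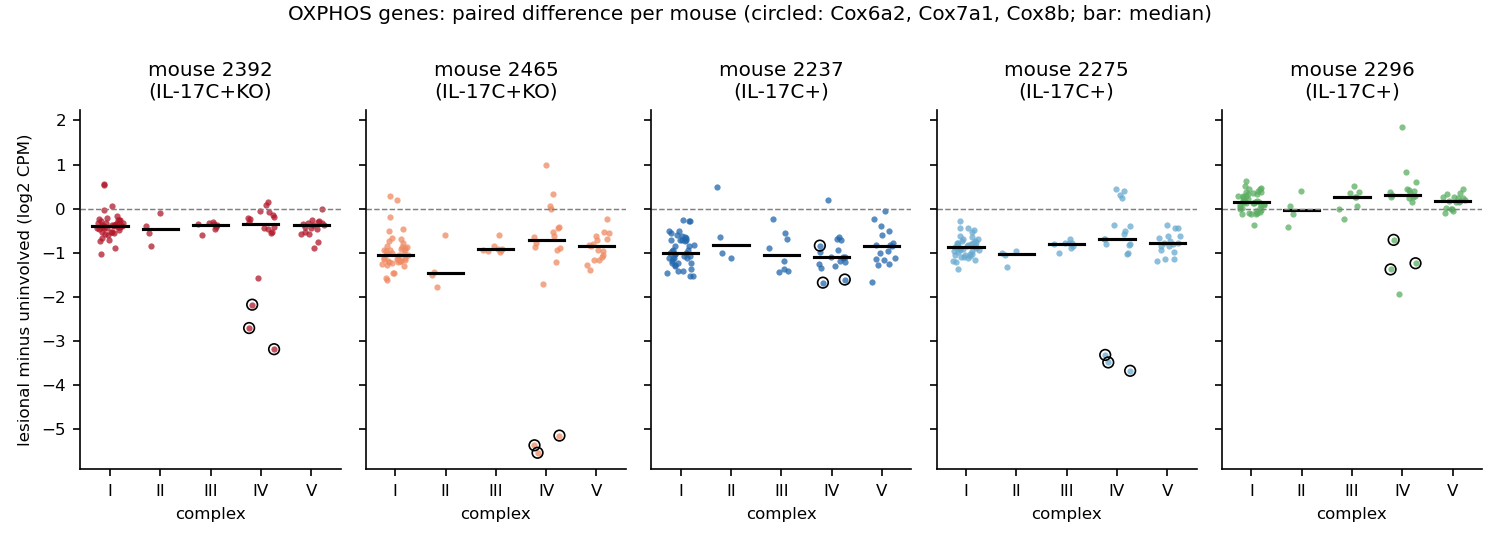
Lesional minus uninvolved difference of each of 90 OXPHOS genes in each mouse (log2 CPM, vertical axis) by complex, with a bar at the median and circles around Cox6a2, Cox7a1 and Cox8b. Medians of all 90 lie at -0.38 (2392), -0.95 (2465), -1.01 (2237), -0.83 (2275) and 0.18 (2296), and the circled genes lie below 0 in all 5 mice.

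Some genes had the same direction in every mouse. In all 5 mice 20 of 90 were lower in lesional skin (22.2%, against 9.75% of all genes) and 0 were higher (against 9.12%). For 19 of them the 5 lesional libraries all lay below the 5 uninvolved ones (21.1%, against 4.27% of all genes), and for 0 of 90 all above (against 2.98%). Among those 19 were the complex I subunits Ndufs1, Ndufs3, Ndufv1, Ndufv3, Ndufa6, Ndufa9 and Ndufb5 and the assembly factor Ndufaf1, Sdhb of complex II, Uqcrc1 and Uqcrc2 of complex III, Cox6a2, Cox7a1 and Cox8b of complex IV, and Atp5a1, Atp5b, Atp5c1 and Atp5d of complex V. Of these 19, 12 have transcripts of 1 kb or longer (63.2%), against 22 of the other 70 tested OXPHOS genes with a length (31.4%), and in mouse 2296 the paired difference of all genes was lower for longer transcripts. The part of transcript length in this count was not tested.

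The muscle isoforms of cytochrome c oxidase had the largest differences of all OXPHOS genes. All 3 lie on chromosome 7 (GENCODE M21 on GRCm38, the assembly called mm10 in the files): Cox7a1 at chr7:30184144-30186078 on the plus strand, and Cox6a2 at chr7:128205435-128206387 and Cox8b at chr7:140898945-140900446 on the minus strand. Promoters of Cox7a1 and Cox8b are shown with those of the common isoforms Cox7a2, Cox8a and Cox6a1. They are set side by side because the members of each pair differed in how far they changed in the same libraries. No promoter was listed for Cox6a2, so Cox6a1 is shown without its muscle partner. The sequences are from RefSeq (GRCm38.p6), run 5′ to 3′ from 250 bases before to 50 bases after the start site, and lie at chr7:30183921-30184220 (plus, Cox7a1), chr7:140900397-140900696 (minus, Cox8b), chr9:79759804-79760103 (minus, Cox7a2), chr19:7217567-7217866 (minus, Cox8a) and chr5:115348909-115349208 (minus, Cox6a1). Capitals mark matches to the E box CAGCTG in Cox8b, to the ETS motif CCGGAAG read on the other strand in Cox8a and Cox6a1, and in Cox6a1 also an overlapping pair of matches, 1 on each strand, to the NRF1 motif GCATGCGC.
Cox7a1: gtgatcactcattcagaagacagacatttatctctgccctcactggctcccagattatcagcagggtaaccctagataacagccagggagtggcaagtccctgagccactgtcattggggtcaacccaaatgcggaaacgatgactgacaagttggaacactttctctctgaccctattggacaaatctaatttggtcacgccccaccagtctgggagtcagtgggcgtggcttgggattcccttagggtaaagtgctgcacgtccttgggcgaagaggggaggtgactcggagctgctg
Cox8b: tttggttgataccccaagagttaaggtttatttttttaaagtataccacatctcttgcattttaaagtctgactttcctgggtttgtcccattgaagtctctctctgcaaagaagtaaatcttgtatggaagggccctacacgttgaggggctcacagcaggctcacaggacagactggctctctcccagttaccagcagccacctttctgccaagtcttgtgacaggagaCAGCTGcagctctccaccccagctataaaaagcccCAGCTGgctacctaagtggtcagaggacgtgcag
Cox7a2: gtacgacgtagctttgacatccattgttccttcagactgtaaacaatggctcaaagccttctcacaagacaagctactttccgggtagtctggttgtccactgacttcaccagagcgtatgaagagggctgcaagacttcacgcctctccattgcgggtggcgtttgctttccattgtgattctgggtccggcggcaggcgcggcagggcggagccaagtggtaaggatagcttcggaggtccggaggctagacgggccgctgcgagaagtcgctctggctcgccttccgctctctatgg
Cox8a: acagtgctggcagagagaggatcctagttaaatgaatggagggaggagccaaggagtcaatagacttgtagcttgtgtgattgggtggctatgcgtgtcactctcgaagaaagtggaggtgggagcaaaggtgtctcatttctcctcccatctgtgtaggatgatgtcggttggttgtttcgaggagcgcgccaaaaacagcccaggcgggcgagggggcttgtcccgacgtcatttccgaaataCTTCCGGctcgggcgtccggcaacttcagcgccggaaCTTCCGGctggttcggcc
Cox6a1: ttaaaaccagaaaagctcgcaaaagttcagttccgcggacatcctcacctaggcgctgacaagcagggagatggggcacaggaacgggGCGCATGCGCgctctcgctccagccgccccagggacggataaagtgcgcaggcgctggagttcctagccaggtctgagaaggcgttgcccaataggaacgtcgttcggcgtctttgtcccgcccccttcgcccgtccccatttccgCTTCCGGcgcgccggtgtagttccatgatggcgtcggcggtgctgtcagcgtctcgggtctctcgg

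Cox7a1 had 5.96, 3.12, 13, 8.36 and 12.2 CPM in lesional skin of mice 2392, 2465, 2237, 2275 and 2296, against 55.1, 113, 39.6, 108 and 28.9 CPM in uninvolved skin. Every lesional library was below every uninvolved one, and the uninvolved libraries of mice 2465 and 2275 were the highest. The log2 change over 5 mice was -2.96 ± 0.48 (SE; edgeR adjusted p = 0.0693). Cox6a2 had 28.9, 7.85, 37.2, 27.6 and 40.5 CPM in lesional skin, against 189.8, 328, 66.9, 277 and 106 CPM in uninvolved skin, again without overlap (log2 change -2.71 ± 0.54, edgeR adjusted p = 0.0904). Its exons overlap those of Itgad on the other strand, and the strand setting of the counting is not stated in the sources used here. Cox8b had 24.4, 4.77, 27.2, 15.4 and 38 CPM in lesional skin, against 110.5, 226, 87.7, 173 and 62.2 CPM in uninvolved skin, with no overlap (log2 change -2.71 ± 0.64, edgeR adjusted p = 0.117).

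The common partners Cox6a1 and Cox8a did not follow them, and Cox7a2 was lower by far less than Cox7a1. Cox6a1 had 279, 237, 259.9, 266 and 380.1 CPM in lesional skin, against 253, 187, 407, 204 and 283 CPM in uninvolved skin, and was higher in lesional skin in every mouse but 2237 (log2 change 0.13 ± 0.23, edgeR adjusted p = 0.805). Cox8a had 261, 200.2, 236, 256 and 357 CPM in lesional skin, against 248, 199.9, 383, 219 and 261 CPM in uninvolved skin (log2 change 0.01 ± 0.23, edgeR adjusted p = 0.984). Both groups covered nearly the same range. Cox7a2 was at 151, 119.7, 137, 136 and 205 CPM in lesional and 173, 160.4, 292, 178 and 168 CPM in uninvolved skin (log2 change -0.36 ± 0.24, edgeR adjusted p = 0.473), lower in lesional skin in 4 of 5 mice. With Cox4i2 (log2 change 0.44 ± 0.49), a lung and oxygen-sensitive isoform, Cox6a1 and Cox8a were the 3 OXPHOS genes with a positive mean change. The sign of Cox8a turned when mouse 2392, 2275 or 2296 was left out (-0.09 to 0.19 over the 5 mice left out in turn).

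As a share of each pair's summed FPKM, which is free of the scaling between libraries, the muscle form was lower in lesional skin for all 3 pairs. Cox6a2 made up 6.98, 2.35, 9.4, 6.99 and 7.17% of Cox6a2 plus Cox6a1 in lesional skin of mice 2392, 2465, 2237, 2275 and 2296, against 35.2, 56, 10.6, 49.6 and 21.4% in uninvolved skin. Cox7a1 made up 15.5 ± 6.09% of Cox7a1 plus Cox7a2 in lesional skin and 51.3 ± 17.5% in uninvolved skin (SD, n = 5 each). For Cox8b with Cox8a the shares were 14.1 ± 6.11% in lesional and 49.6 ± 17% in uninvolved skin (SD, n = 5 each). In each pair the 5 lesional shares lay below the 5 uninvolved ones, but in mouse 2237 the Cox6a2 shares differed by little. The size of a share rests on the FPKM scale. The ratio of FPKM to CPM was 5.18 for Cox7a1 against 1.58 for Cox7a2, and 5.28 for Cox8b against 2.54 for Cox8a. For Cox6a2 it was 1.87, against 2.64 for Cox6a1. By count, uninvolved skin averaged 69 CPM of Cox7a1 against 194 of Cox7a2, and 132 CPM of Cox8b against 262 of Cox8a. Shares of Cox4i2, Cox6b2, Ndufa4l2 and the 3 c-ring genes Atp5g1, Atp5g2 and Atp5g3 overlapped between the skin types.

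**Figure D3:**
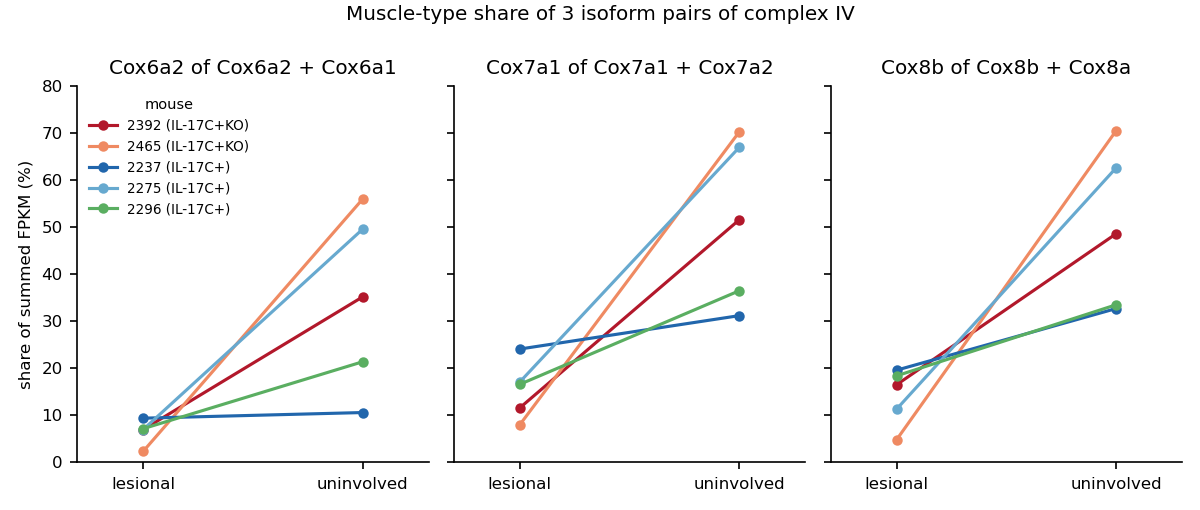
Share (%) of the summed FPKM of each isoform pair taken by the muscle form, in lesional (left) and uninvolved (right) skin, with a line per mouse. The Cox6a2 share averages 6.58% in lesional and 34.6% in uninvolved skin, and every line slopes up to the right, least in mouse 2237.

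The summed markers of skeletal muscle were lower in lesional skin together with these isoforms in every mouse but 2237. The 26 muscle genes summed to 6770, 1160, 9390, 5610 and 4180 CPM in lesional skin of mice 2392, 2465, 2237, 2275 and 2296, against 43500, 67600, 8800, 48500 and 18000 CPM in uninvolved skin. Their sums overlapped only through mouse 2237, whose uninvolved library held the least muscle signal of the 5. In that mouse the paired differences of Cox7a1, Cox6a2 and Cox8b were still -1.61, -0.84 and -1.68. Of the 26, 24 had a negative mean change, with a median of -2.76, and only the muscle LIM protein gene Csrp3 was called lower (log2 change -4.62 ± 0.26, edgeR adjusted p = 0.00733). Skeletal actin Acta1 had 797, 162, 1360, 1020 and 580 CPM in lesional and 9920, 12500, 1720, 10300 and 4480 CPM in uninvolved skin (log2 change -3.34 ± 0.66, edgeR adjusted p = 0.0902). Per mouse the medians of the muscle list were -2.49, -5.71, -0.23, -3.00 and -1.78 in the same order, while those of the 76 tested subunits other than the 3 muscle isoforms were -0.38, -0.95, -1.01, -0.83 and 0.19. How much of the OXPHOS difference comes with the muscle content of the biopsies was not tested.

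**Figure D4:**
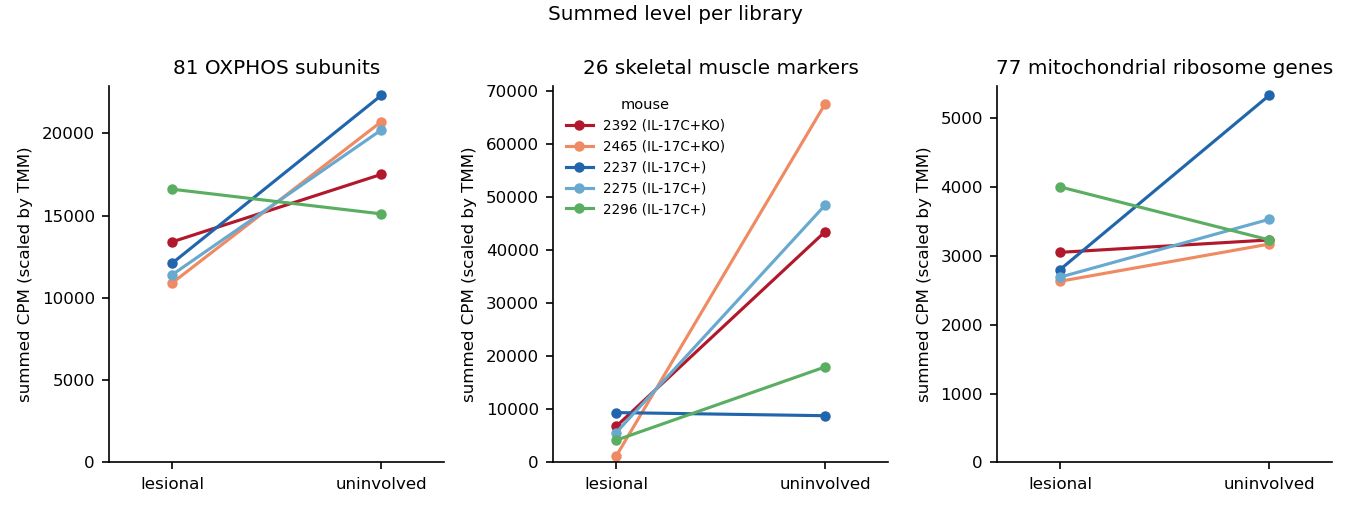
Summed CPM per library of the 81 OXPHOS subunits, of 26 skeletal muscle markers and of 77 mitochondrial ribosome genes in lesional (left) and uninvolved (right) skin, with a line per mouse; each axis starts at 0. Subunit sums are lower in lesional skin in every mouse but 2296, the muscle sum in every mouse but 2237, where it is 9390 in lesional and 8800 CPM in uninvolved skin.

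Other cell types also differed between the biopsies. All 12 white adipocyte markers had negative changes (median -0.91), but per mouse the median ran from 0.66 (2392) to -2.92 (2465), and 0 of 12 were called. The 8 fibroblast markers (median 1.38) and 7 neutrophil markers (median 3.74) all had positive changes, with 0 called. The 8 brown adipocyte markers summed to 126, 60.8, 84.4, 104 and 113 CPM in lesional skin of mice 2392, 2465, 2237, 2275 and 2296, against 145, 93.3, 94.4, 145 and 120 CPM in uninvolved skin. Of the 6 tested, 5 had negative changes (median -0.97) and 0 were called. Ucp1, which defines brown fat, was at 0 to 0.0825 CPM in all libraries. Hair follicle markers summed to 28.7, 1790, 5900, 6680 and 1010 CPM in lesional skin of mice 2392, 2465, 2237, 2275 and 2296, against 51.4, 39.7, 9470, 34.1 and 1740 CPM in uninvolved skin. The part of these cell types in the OXPHOS differences was not tested.

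All 36 subunits of complex I, the NADH dehydrogenase, had a negative mean change and 0 were called. The mean changes ran from -0.90 (Ndufb8) to -0.32 (Ndufc2), with a median of -0.65. At an unadjusted p under 0.05, 26 of the 36 were lower (against 9.98% of all genes). Per mouse the complex I medians were -0.41, -1.08, -0.99, -0.90 and 0.14 in mice 2392, 2465, 2237, 2275 and 2296. Ndufs1, the largest subunit, had 130.0, 110.2, 122, 116 and 132 CPM in lesional skin of mice 2392, 2465, 2237, 2275 and 2296, against 174, 227, 149, 211 and 140.0 CPM in uninvolved skin (log2 change -0.54 ± 0.21, edgeR adjusted p = 0.238). The skin types did not overlap, and lesional libraries lay in a narrow band while uninvolved ones spread widely. Other core subunits had log2 changes of -0.82 ± 0.25 (Ndufs7), -0.72 ± 0.23 (the NADH-binding Ndufv1), -0.68 ± 0.25 (Ndufv2), -0.64 ± 0.23 (Ndufs3) and -0.59 ± 0.23 (Ndufs8), with edgeR adjusted p-values of 0.165 to 0.245. The 7 assembly factors were all negative with a median of -0.41, from -0.70 (Ndufaf5) to -0.02 (Ndufaf2), and 0 had an unadjusted p under 0.05.

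Complex II, succinate dehydrogenase, which also belongs to the tricarboxylic acid (TCA) cycle, had 4 of 4 subunits negative (median -0.64). Sdhb (chr4:140961203-140979193, plus strand) had 114, 90.4, 119.5, 109.7 and 136 CPM in lesional skin, against 204, 308, 241, 273 and 148 CPM in uninvolved skin. The groups did not overlap, with mouse 2296 closest (log2 change -1.01 ± 0.26, edgeR adjusted p = 0.128). The flavoprotein Sdha had 291, 203, 251, 238 and 200.0 CPM in lesional skin, against 381, 581, 178, 476 and 266 CPM in uninvolved skin. It was lower in lesional skin in 4 mice and higher in mouse 2237 (log2 change -0.56 ± 0.30, edgeR adjusted p = 0.374). The membrane anchors Sdhc and Sdhd had log2 changes of -0.72 ± 0.25 and -0.48 ± 0.27, with edgeR adjusted p-values of 0.197 and 0.405.

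In complex III, which hands electrons from ubiquinol to cytochrome c, all 8 subunits were negative within a narrow range of -0.64 (Uqcr11) to -0.53 (the Rieske protein Uqcrfs1). The core protein Uqcrc1 had 315, 278, 307, 259.9 and 329 CPM in lesional skin, against 482, 542, 360.4, 525 and 389 CPM in uninvolved skin, without overlap (log2 change -0.61 ± 0.22, edgeR adjusted p = 0.214). In complex IV, outside the muscle isoforms, the ubiquitous Cox4i1 had 339.9, 274, 276, 279 and 456 CPM in lesional skin, against 399, 468, 699, 485 and 368 CPM in uninvolved skin. Its groups overlapped through mouse 2296 (log2 change -0.57 ± 0.29, edgeR adjusted p = 0.356), and Cox5a and Cox5b were at -0.68 ± 0.24 and -0.52 ± 0.25. Ndufa4l2, a hypoxia-induced relative of Ndufa4, had 84.2, 28.3, 163, 89.8 and 69.8 CPM in lesional skin, against 252, 91.9, 143, 116 and 266 CPM in uninvolved skin. It was lower in every mouse but 2237 (log2 change -1.07 ± 0.32, edgeR adjusted p = 0.166), and its exons overlap Shmt2. Of the 91 OXPHOS genes placed in the annotation, 24 have an exon that overlaps another gene, 3 of them on the same strand.

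All 15 subunits of complex V were negative, with a median of -0.60, from -0.90 (Atp5e) to -0.20 (Atp5g3). The catalytic subunit Atp5b, the most abundant OXPHOS gene by count, had 1608, 1339.7, 1414, 1354 and 1674 CPM in lesional skin, against 1938, 2185, 2162, 2085 and 1747 CPM in uninvolved skin. Its groups did not overlap, with mouse 2296 again the closest (log2 change -0.45 ± 0.24, edgeR adjusted p = 0.379). Atp5a1 and Atp5c1, the other subunits of the catalytic head named with it, had log2 changes of -0.44 ± 0.23 and -0.79 ± 0.25. Among the 3 genes for the same c-ring protein, the log2 change was -0.66 ± 0.24 for Atp5g1, -0.38 ± 0.22 for Atp5g2 and -0.20 ± 0.25 for Atp5g3. Their edgeR adjusted p-values were 0.215, 0.407 and 0.707.

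The dependence on transcript length in mice 2237 and 2296 ran across all genes and reached the OXPHOS genes. In mouse 2237 the lesional minus uninvolved median of all genes was -0.79 for transcripts under 1 kb, -0.42 for 1 to 2 kb, 0.06 for 2 to 4 kb and 0.65 above 4 kb. Mouse 2296 ran the other way, with 0.28, 0.16, -0.05 and -0.34, and in the other 3 mice all medians lay between -0.18 and 0.16. The 55 OXPHOS genes under 1 kb had medians of -0.38, -0.91, -1.10, -0.80 and 0.26 in mice 2392, 2465, 2237, 2275 and 2296, against -0.11, -0.12, -0.79, -0.18 and 0.28 for the 1287 genes of that length. The difference between the OXPHOS median and that of all genes under 1 kb was thus -0.27, -0.79, -0.31, -0.62 and -0.02 in the same mice. With a length term in the fit, chosen after seeing the data, the 5-mouse median was -0.42, and with mice 2237 and 2296 left out it was -0.74, both with 0 of 90 called by edgeR. Without those mice the log2 changes of Cox7a1, Cox6a2, Cox8b and Sdhb were -4.03, -3.81, -3.74 and -1.32.

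**Figure D5:**
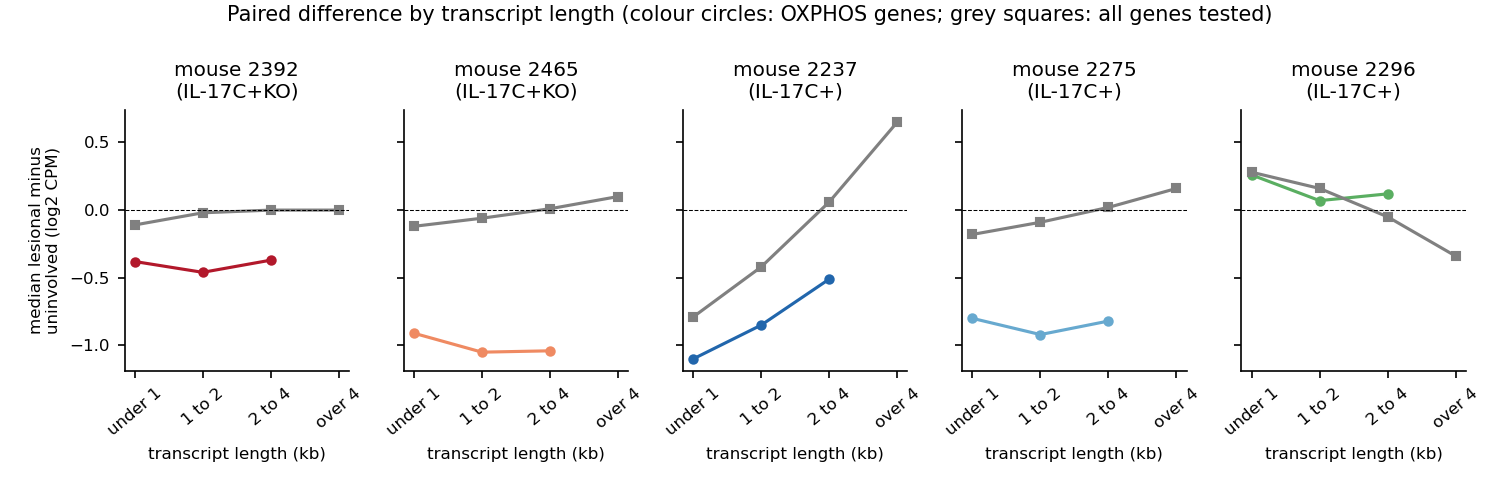
Median lesional minus uninvolved difference (log2 CPM) of OXPHOS genes (circles) and all genes tested (grey squares) by transcript length class, a panel per mouse; 0 OXPHOS genes are longer than 4 kb. All genes slope from -0.79 to 0.65 in mouse 2237 and from 0.28 to -0.34 in mouse 2296, and are nearly flat in the other 3 mice, where the OXPHOS genes lie below them.

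The mice also differed in which OXPHOS genes moved most. Over the 90 genes, the paired differences of mice 2465 and 2275 had a Pearson correlation of 0.95, and without the 3 muscle isoforms of 0.82; those of mice 2237 and 2296 had -0.35 and -0.56. These values describe the pattern across genes that share libraries and depth. In mouse 2237 the difference correlated with transcript length by 0.54 over 89 OXPHOS genes with a length (0.51 over 14777 genes), and in the other 4 mice by -0.14 to 0.15.

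In neighbouring mitochondrial pathways most genes had negative changes, with 0 called by edgeR in any of these lists. For the counts at an unadjusted p under 0.05 below, 9.98% of all genes were lower and 8.83% higher. All 20 genes of the TCA cycle and pyruvate entry were negative (median -0.67, 13 with an unadjusted p under 0.05), among them the isocitrate dehydrogenase subunit Idh3a (log2 change -0.73 ± 0.23). In fatty acid oxidation 15 of 16 were negative (median -0.63, 11 with an unadjusted p under 0.05), from the muscle carnitine palmitoyltransferase Cpt1b (-2.56 ± 0.64) to its liver-type partner Cpt1a (0.39 ± 0.28). TCA genes had medians of -0.36, -1.26, -0.42, -1.03 and -0.15 in mice 2392, 2465, 2237, 2275 and 2296, negative in all 5. Other assembly factors had a median of -0.37 (32 of 34 negative) and the 77 mitochondrial ribosome genes -0.27 (74 negative). The mitochondrial ribosome sums were 3050, 2630, 2800, 2690 and 4000 CPM in lesional skin, against 3230, 3170, 5330, 3530 and 3230 CPM in uninvolved skin, with mouse 2237 the high uninvolved value. Glycolysis, which runs in the cytosol, was mixed: 10 of 17 genes were negative (median -0.40), 0 were called, and at an unadjusted p under 0.05 5 were lower and 3 higher.

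Among transporters, the muscle adenine nucleotide carrier Slc25a4 had 297, 221, 381, 286 and 379 CPM in lesional skin, against 1150, 2000, 605, 1840 and 688 CPM in uninvolved skin (log2 change -1.86 ± 0.39, edgeR adjusted p = 0.0982). Its widely expressed partner Slc25a5 had 728, 662, 638, 676 and 861 CPM in lesional and 620, 363, 985, 463 and 801 CPM in uninvolved skin (log2 change 0.23 ± 0.26, edgeR adjusted p = 0.694). In this pair too the muscle form was the lower of the pair in its change. Cytochrome c itself, Cycs, had a log2 change of -0.42 ± 0.25. Among 17 regulators of mitochondrial biogenesis the median was -0.06. The coactivator Ppargc1a had a log2 change of -1.42 ± 0.39 and the orphan receptor Esrrb, at 0 to 5.23 CPM, of -3.91 ± 0.63, with edgeR adjusted p-values of 0.141 and 0.0693. Nrf1 and Gabpa, factors that bind many OXPHOS promoters, were at 0.02 ± 0.18 and 0.08 ± 0.17.

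The paired differences were also taken by genotype label. In the libraries labelled IL-17C+KO (2 mice) 84 of 90 were negative (93.3%, against 49.8% of all genes) with a median of -0.68. At an unadjusted p under 0.05 14 were lower (15.6%, against 7.31% of all genes) and 0 higher (against 6.16%), and 0 passed edgeR's adjusted threshold (against 0.00622% of all genes in each direction). DESeq2 called 4 lower there (Cox7a1, Cox6a2, Cox8b and Ndufa4l2), where it called 642 of all 16083 genes lower, and limma-voom called 0. In IL-17C+ mice (3 mice) 88 of 90 were negative (97.8%, against 51.5% of all genes) with a median of -0.55. At an unadjusted p under 0.05 5 were lower (5.56%, against 2.87% of all genes) and 0 higher (against 3.54%), and 0 passed (against 0% of all genes). DESeq2 called Cox7a1 lower, where it called 92 of all 16083 genes lower, and limma-voom called 0. Cox7a1 had a log2 change of -4.18 ± 0.80 under the KO label and -2.15 ± 0.61 in IL-17C+ mice, Cox6a2 -4.04 ± 0.90 and -1.82 ± 0.67, and Cox8b -3.85 ± 1.08 and -1.94 ± 0.79. The mice of a label also spread: the Cox7a1 difference was -3.19 in mouse 2392 and -5.15 in mouse 2465, against -1.61 in mouse 2237, -3.68 in mouse 2275 and -1.24 in mouse 2296. Leaving out a mouse moved the OXPHOS median under the KO label between -0.96 (without 2392) and -0.38 (without 2465), and that of IL-17C+ mice between -0.87 (without 2296) and -0.31 (without 2237). With the length term the medians were -0.56 under the KO label and -0.33 in IL-17C+ mice.

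The lesional change was tested for a difference between the labels, as KO minus IL-17C+. In simulated data this edgeR test recovered 0 of 100 genes given a log2 difference of 2. A count of 0 passing therefore does not show that the labels changed alike. By edgeR 0 of 90 OXPHOS genes passed (against 0% of all genes), and 0 had an unadjusted p under 0.05 (against 0.597% of all genes lower and 0.572% higher). DESeq2 also called 0 of 90, where it called 6 of all genes tested, and limma-voom called 0. The largest differences were -2.22 ± 1.07 for Cox6a2, -2.03 ± 0.94 for Cox7a1 and -1.91 ± 1.29 for Cox8b (edgeR adjusted p = 1 for each), and 0.75 ± 0.61 for Ndufaf2, 0.63 ± 0.49 for Ndufaf7 and 0.37 ± 0.43 for Ndufaf4. With a mouse left out, the difference ranged from -3.57 to -0.89 for Cox6a2, from -3.04 to -1.06 for Cox7a1 and from -3.63 to -0.24 for Cox8b, lowest without mouse 2392 and highest without mouse 2465. Of the 90, 68 were negative (75.6%, against 50.0% of all genes). Their median was -0.11, and it became 0.25 without mouse 2296 (27 negative), 0.13 without mouse 2465 (25 negative), 0.17 without both mice 2237 and 2296, and -0.41 without mouse 2392 (81 negative).

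Between the labels within a skin type, no OXPHOS gene passed the threshold. In lesional skin the 81 subunits summed to 13400 and 10900 CPM in the libraries labelled IL-17C+KO, against 12100, 11400 and 16600 CPM in IL-17C+ libraries. There 76 of 90 had a negative log2 change (84.4%, against 49.3% of all genes) and the median was -0.17. Without mouse 2296 the median was 0.01 with 41 of 90 negative, without mouse 2465 -0.07 with 59, without mouse 2392 -0.32 with 87, and with the length term -0.08 with 63. For 7 of 90 both libraries labelled IL-17C+KO lay below all 3 IL-17C+ libraries (7.78%, against 13.2% of all genes), and for 0 of 90 above (against 11.8%). Cox7a1, at 5.96 and 3.12 CPM in the libraries labelled IL-17C+KO, against 13, 8.36 and 12.2 CPM in IL-17C+ libraries, had the largest difference (log2 change -1.27 ± 0.38, edgeR adjusted p = 0.585) and was the 1 gene with an unadjusted p under 0.05 (1.11%, against 2.53% of all genes lower and 4.77% higher). By edgeR 0 of 90 passed (against 0% of all genes). DESeq2 also called 0 of 90, where it called 213 of all genes tested, and limma-voom called 0. In uninvolved skin the subunits summed to 17500 and 20700 CPM in the libraries labelled IL-17C+KO, against 22300, 20200 and 15100 CPM in IL-17C+ libraries, and the median log2 change was -0.09 with 54 of 90 negative (60%, against 51.1% of all genes). This median was not of one sign: without mouse 2237 it was 0.09 with 17 negative, without mouse 2392 0.04 with 42, and with the length term 0.11 with 23, while without mouse 2296 it was -0.26 with 69. Both libraries labelled IL-17C+KO lay below all 3 IL-17C+ libraries for 2 of 90, Ndufaf2 and Ndufaf7 (2.22%, against 10.6% of all genes), and above for 0 (against 10.5%). By edgeR 0 of 90 passed (against 0% of all genes), and 0 had an unadjusted p under 0.05 (against 1.82% of all genes lower and 1.91% higher). DESeq2 also called 0 of 90, where it called 11 of all genes tested, and limma-voom called 0. The extremes were Ndufaf2 (-0.73 ± 0.42) and Cox6a2 (0.80 ± 0.61). Il6 counts were higher under the KO label in both skin types.

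Promoters were searched on both strands for the letters shown above and for the ERR motif TCAAGGTCA and a MEF2 motif, in the 300 bases around each RefSeq start site. A promoter was listed for 76 of the 92 genes. A gene counted if any of its promoters matched (82 promoters for the 76 genes). The shares of all mouse promoters count single promoters, which can raise the OXPHOS shares beside them. The NRF1 motif was found for 12 of the 76 (15.8%, against 2.71% of 32851 mouse promoters), among them Sdhb, Ndufa6, Uqcrc1, Atp5k and Cox6a1. The ETS motif was found for 17 (22.4%, against 8.86%), again with Sdhb and Cox6a1. The ERR motif was found for 2 (Atp5g3 and Sdhd, 2.63% against 0.423%), the E box for 6 (7.89% against 16.3%) and the MEF2 motif for 0 (against 0.557%). Cox7a1 and Cox7a2 held none of these letters in the window, Cox8b held 2 E boxes, at -19 to -14 and at 17 to 22 from the start site, and Cox8a held 2 ETS matches, at -5 to 2 and 33 to 39. Median GC content was 58% in OXPHOS promoters and 52.7% in all promoters. These matches describe the sequence and not binding.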

How the data were processed

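RNA from 10 mouse skin biopsies was sequenced, and 1 table per biopsy was used, with a count and an FPKM value per gene symbol. Per the submitters' processing notes, the authors trimmed reads with cutadapt 1.6, aligned them to mm10 with TopHat2 2.0.12, and used HTSeq (no version stated) and Cufflinks 2.2.1. The deposited counts were taken as whole-number reads per gene and the deposited FPKM as given; gene annotation and strand setting are not stated in the sources used here.

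Counts were filtered (filterByExpr), scaled by TMM and tested in R 4.3.3 with edgeR 4.0.16 (robust quasi-likelihood F tests) across all genes, with Benjamini-Hochberg adjustment and a false discovery rate of 0.05. Lesional and uninvolved libraries were compared in 1 fit of 10 libraries, blocked by mouse, with a lesional effect per genotype label, whose mean was weighted 0.6 and 0.4 by the number of mice. Genotype labels were compared within a skin type over 5 mice. SE values of edgeR log2 changes are the absolute log2 change divided by the square root of the F statistic. Per-library CPM are scaled by TMM, and paired differences use log2 CPM (prior count 2). The pairing comes from the labels, which tie both biopsies to a mouse; deviations from the group means correlated by -0.12 to 0.03 within a mouse. Counting limits (3 counts) cover counting error only. The tests were checked on simulated data with 100 changed genes per size. At a log2 change of 1 the 5-mouse test recovered 5, and at 2 it recovered 85. At a log2 change of 2 the paired tests recovered 63 (IL-17C+) and 6 (KO label). Between labels, 29 were recovered at that size in lesional and 18 in uninvolved skin. Simulated counts took their spread from the mouse-blocked fit, with no difference between mice added, so recoveries between labels may be too high. The test of a difference in lesional change between labels recovered 0 at either size. Unchanged genes were called too: 4 in the 5-mouse test, 7 in the paired test of IL-17C+ mice and 4 in that of the KO label. Between labels there were 2 in lesional and 4 in uninvolved skin, and 1 for the difference in lesional change. Alternatives were RLE scaling, library totals, no filter, DESeq2 1.42.0, limma-voom (limma 3.58.1), no block, each mouse left out, and 2 chosen after seeing the data.

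The OXPHOS genes and all lists were chosen with earlier results of these data known. Genes were named by rule: the 3 largest changes in each direction per comparison, the most abundant gene of each complex, isoform pairs, core subunits, and genes with 0 counts in any library; other genes are named with their list. Coordinates are from GENCODE M21, and promoter sequences from RefSeq. Results for some genes under these rules are not reported here.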

Additional observations from a re-analysis of the deposited data

Results flagged for a closer look

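Among 60 groups of 5 values (20 OXPHOS genes, as CPM in each skin type and as paired differences), 3 held a value far from the other 4. Chance gives about 1 in 20, so the count is near that rate. All 3 came from mouse 2237, but the groups share the same libraries and are not independent. The lesional minus uninvolved difference of Cox6a1 was -0.65 in mouse 2237, against 0.14 to 0.43 in the other 4 mice. Ndufa4 had 656 CPM in the uninvolved library of mouse 2237, against 409.8 to 432 CPM in the other 4. Cox7a2 had 292 CPM in that library, against 160.4 to 178 CPM in the other 4. The library is the one in which transcripts under 1 kb were high across all genes, and the part of that trend in these values was not tested.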

How the results depend on the processing

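Of 1119 values recomputed under 17 settings, 1057 kept their direction and side of the threshold, or moved within the limits set for values without a test. For medians the limit was the spread between mice, so a median that changed sign could count as kept. With a mouse left out, the OXPHOS median of the difference between labels ranged from -0.41 to 0.25 and counted as kept. All single OXPHOS genes began above edgeR's adjusted threshold, so keeping their side of it says little. The median of the OXPHOS genes over 5 mice stayed between -0.78 and -0.42. Over 5 mice, where edgeR called 20 genes, there were 139 without the filter, 1881 by DESeq2 (11 OXPHOS genes), 13 by limma-voom, 0 with both mice 2237 and 2296 left out, and 1 (without mouse 2296) to 303 (without mouse 2237) with a mouse left out. Without the replicate block, which ignores the pairing of biopsies by mouse, there were 769 (7 OXPHOS genes). For the libraries labelled IL-17C+KO, where edgeR called 2, there were 1 with library totals, 5 without the filter, 1157 by DESeq2 (4 OXPHOS genes), 0 without the block, 0 with that label's libraries alone, 5 with the length term, 0 without both mice, and 0 (without 2392, 2465 or 2296) to 11 (without 2237) with a mouse left out. For IL-17C+ mice DESeq2 called 247 (1 OXPHOS gene). For the difference between labels it called 6. Between labels it called 213 in lesional skin, where removing the filter gave 1, and 11 in uninvolved skin, where leaving out a mouse gave 0 to 241 (without 2275). Signs turned in 16 of 883 values of single OXPHOS genes. With the length term Cox6b2 became 0.16 and Atp5g3 0.01 over 5 mice. With a mouse left out, Cox8a ranged from -0.09 to 0.19 and Cox6b2 from -0.35 to 0.20 over 5 mice, Cox6a1 from -0.12 to 0.41 and Cox4i2 from -0.32 to 1.18 in IL-17C+ mice, and Cox4i2 from -0.05 to 1 under the KO label. Between labels Sdha ranged from -0.14 to 0.34, Ndufaf7 from -0.02 to 0.28 and Sdhd from -0.05 to 0.31 in lesional skin, and Cox6b2 from -1.13 to 0.45 and Cox4i2 from -1.02 to 0.15 in uninvolved skin. The cause was not tested. The length term and leaving out both mice were chosen after seeing the data. With 5 mice, changes near the OXPHOS median could not be told from the spread between mice gene by gene.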
